A study of Mus musculus and blank sample with 768 samples.

Results

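Tumour macrophages were the 81 cells kept from the 96 wells of plate KM1, sorted from mouse tumours as CD45+ CD31- GFP-. They were chosen by sort gate and by library quality alone: a well had to reach 50000 gene reads and 1000 detected genes, with no more than 25% of its reads from mitochondrial genes. The whole series holds 768 wells from tumour, lymph node and blood. CD45 is the leukocyte surface phosphatase encoded by Ptprc, and CD31 is the endothelial adhesion protein encoded by Pecam1. Endothelial cells of the same tissue served as background, with 84 GFP- cells (CD45- CD31+) from plate KM2 and 84 and 85 GFP+ cells (CD45- CD31+) from plates KM3 and KM4. The labels call the GFP+ cells endothelial cells of the Csf1r lineage and give all of these cells the tissue tumour, with no strain, age, tumour model, Cre driver or treatment. Each gate was 1 sample, because no label names an animal, so the values below describe these cells and carry no test between gates.

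Macrophages are tissue phagocytes that arise from blood monocytes or from embryonic precursors and depend on signals through CSF1R, the receptor for macrophage colony-stimulating factor. In tumours they engulf dying cells, digest them in lysosomes, display peptides on MHC class II to helper T cells and release chemokines that draw in other leukocytes. Tumour macrophages are known to range from MHC class II-rich cells to cells that carry Arg1 or Spp1 and are tied to tissue remodelling.

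Single cells were amplified by SMART-seq2, which copies full-length transcripts by PCR without molecular identifiers, so reads are not molecules and the intervals given here cover counting error only. The kept macrophages held 111208 to 2909179 reads in genes (median 867486), 1815 to 5482 genes with a read (median 3328) and 0.92% to 10.2% mitochondrial reads. Of the 15 wells left out, 13 held 3 to 555 reads, and the 2 nearest the limits held 23906 and 44431 reads. Median depth was 827490 reads in the GFP- endothelial cells and 798549 and 848441 on the GFP+ plates. No pair of macrophages had identical counts, and the correlation of log2(CPM + 1) between them ran from 0.38 to 0.61. CPM are reads per 1000000 reads of a cell or, for a gate, of its summed reads. On plate KM2, 1 of 3486 pairs of wells had a correlation of 0.95 where the next was 0.71, and the counts against that gate are given below with and without the shallower of these wells.

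The macrophage markers were carried by nearly every cell. Csf1r ran from 118.7 CPM in the lowest cell over a median of 1232 to 4406 in the highest. Lyz2, the lysozyme of myeloid cells, ran from 420.1 over 7344 to 34571 CPM. C1qa, a chain of the complement protein C1q, ran from 687 over 4238 to 8397 CPM. These 3 genes had reads in all 81 cells, and the lowest macrophage lay above the highest endothelial cell for each of them (at most 83.3 CPM for Csf1r, 2.74 for Lyz2 and 3.56 for C1qa). Tyrobp, an adaptor for activating immune receptors, ran from 596 over 1653 to 3110 CPM, and the highest endothelial cell was at 1.45 CPM. Ptprc, the gate's own gene, was uneven, from 0 over 294.9 to 1293 CPM, with reads in 91.4% of the macrophages (83% to 96.5%, exact binomial interval) and in 0 of the endothelial cells.

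**Figure D1:**
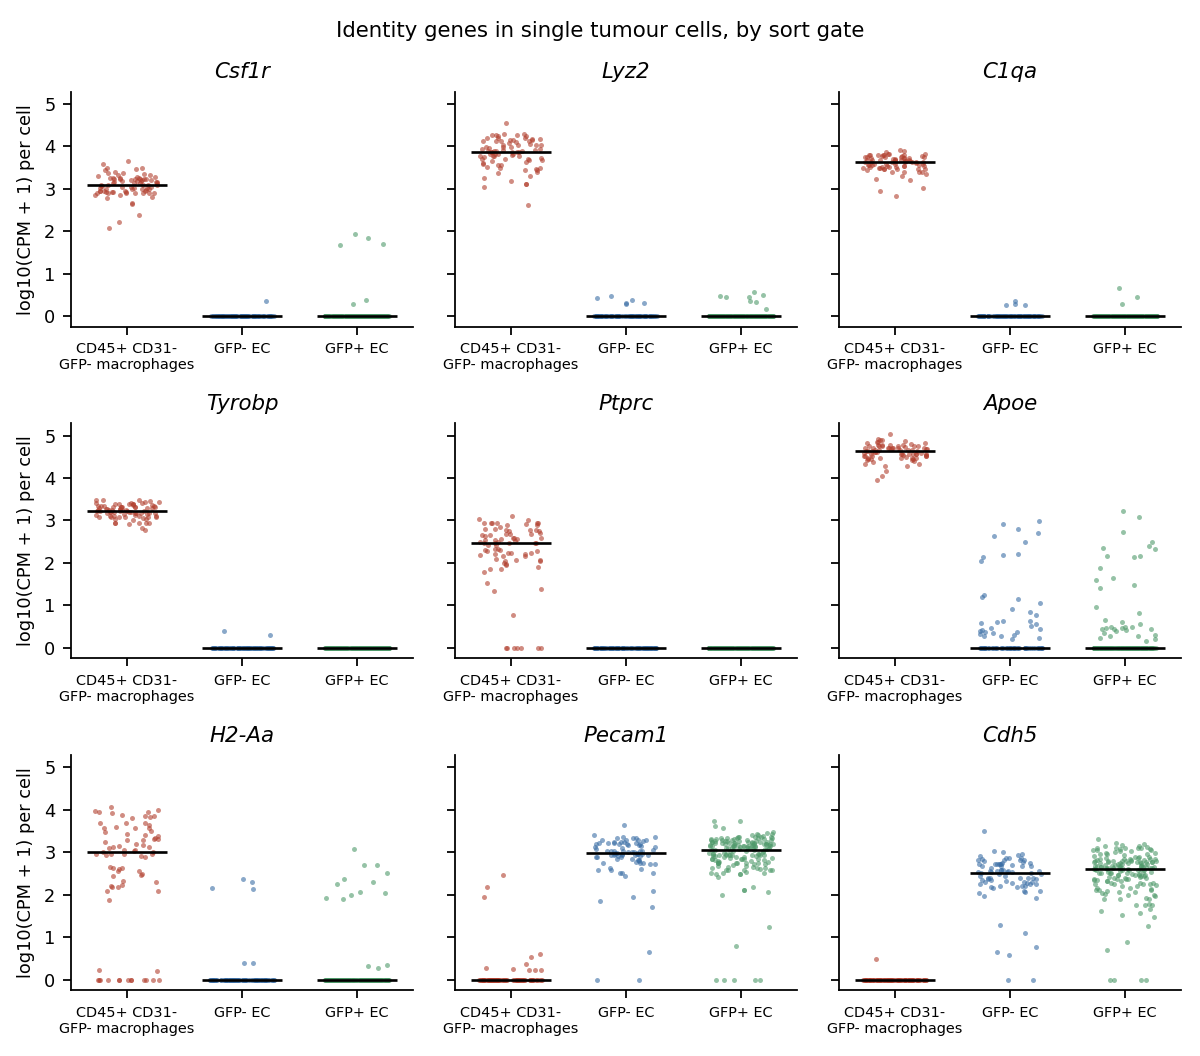
Level of identity genes in single tumour cells by sort gate, as log10(CPM + 1) with 1 point per cell. For Csf1r, Lyz2, C1qa and Tyrobp each of the 81 macrophages lies above each endothelial cell, while Ptprc is at 0 in some macrophages and Pecam1 in most.

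Every macrophage carried reads of 12 to 16 of the 16 listed macrophage markers, and 30 cells carried all of them. Their summed level ran from 13339 over 37648 to 67905 CPM per cell, against a median of 2.18 and at most 863 CPM in GFP- endothelial cells and at most 1710 CPM in GFP+ ones. Endothelial markers were the reverse, with all 10 lower against either endothelial gate. Of 10 listed, Kdr and Tie1, which encode receptors for VEGF and a partner of the angiopoietin receptor, had 0 of 80166786 macrophage reads, which allows up to 0.037 CPM. Pecam1 was at 5.91 CPM with reads in 13.6% of the macrophages, or 6.17% when each cell was thinned to 100000 reads, and 0 cells held 2 endothelial markers at 10 CPM or more. The label thus matches its markers, and 3 macrophage wells held at least a read of 3 or more endothelial genes.

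Markers of other leukocytes appeared in part of the macrophages. In 4 wells 7 of 8 T cell genes had reads, summing to 787 to 2632 CPM, where the other 77 cells held at most 39.3 CPM. These wells also carried 14 to 16 of the macrophage markers and 3645 to 5270 genes. Trbc2, the constant region of the T cell receptor beta chain, reached 1119 CPM in them and had reads in no other macrophage. Wells were filled by single-cell sorting and no doublet caller was run. The source of these reads was not tested, and without the 4 wells no count over all genes given below moved by 1.5 times. Of the 8 neutrophil markers S100a9, Ly6g and Retnlg had 0 reads and only Csf3r was measured, at 107.7 CPM with reads in 46.9% of the cells, and 36 macrophages (44.4%) held a neutrophil marker at 10 CPM, against 1 cell of each endothelial gate. A B or plasma cell marker was at 10 CPM in 44 macrophages (54.3%) and in 0 endothelial cells. These were reads of Ighm, the immunoglobulin mu chain, at 153.2 CPM, and of Cd79b, a chain of the B cell receptor, at 42.7 CPM. Of 10 dendritic cell markers Flt3, Clec9a, Cd209a and Ccr7 had 0 reads, and the other 6 had reads. At least 1 of the markers was at 10 CPM in 10 macrophages (12.3%), and 1 macrophage held 3 at that level. Their sum reached 533.8 CPM in the highest macrophage. The 3 measured members were at least 2-fold lower than in either endothelial gate. Lists for NK cells, erythroid cells, fibroblasts or pericytes and melanocytes had no measured member.

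Classical monocyte genes formed a partial set. Ly6c2, a surface protein of these monocytes, had reads in 2.47% of the cells. Ccr2, the receptor through which monocytes follow CCL2, was at 92.5 CPM with reads in 27.2%. F13a1, the A chain of coagulation factor XIII, was at 292.6 CPM with reads in 51.9% of cells. Fn1, fibronectin, was at 552 CPM with reads in 59.3% of cells, but was at 581 and 504 CPM in GFP- and GFP+ endothelial cells too. Of the measured markers 2 of 4 were at least 2-fold higher than in GFP- cells and 4 of 5 than in GFP+ cells. Their sum ran from 0 over 457 to 7356 CPM, and its median in GFP- and GFP+ endothelial cells was 467 and 341.6 CPM. Of the 10 markers, 3 or more were at 10 CPM in 17 of the 81 macrophages, against 0 endothelial cells of either gate.

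Against GFP- endothelial cells, 2278 of 11791 measured genes (19.3%) were at least 2-fold higher in macrophages and 3247 (27.5%) at least 2-fold lower. A gene was measured if either gate held it at 1 CPM or more, in no fewer than 5% of its cells, and ratios are log2 of (CPM + 1) over (CPM + 1). Against GFP+ endothelial cells the shares were 19.7% higher and 24.2% lower of 11551. Both comparisons use the same macrophages. The median ratio of all genes was -0.21 and -0.08, and a TMM scaling moved the first to -0.07. Without the shallower of the correlated KM2 wells, 2277 genes were higher and 3238 lower. No plate held more than 1 gate, so gate and plate cannot be told apart in any of these ratios.

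The 10 genes with the highest ratio to the higher of the endothelial gates were Lyz2, C1qb, C1qc, C1qa, Rgs1, Tyrobp, Fcgr3, Apoe, Lilrb4a and Ctss. Per kilobase of transcript, Apoe, the lipid carrier of lipoproteins, was the most abundant of them at 20674 CPM per kb. Lyz2 followed at 6972, C1qb at 6460, Ctss, a cysteine protease of the lysosome that trims the MHC class II invariant chain, at 5651 and C1qa at 4086 CPM per kb. Apoe ran from 8814 over 42876 to 108351 CPM per cell, and the highest endothelial cell held 1692 CPM. Rgs1, which damps signalling from chemokine receptors, ran from 0 over 1693 to 6291 CPM, with reads in 93.8% of macrophages. Against GFP- endothelial cells, with 0 reads, it was at least 50876-fold higher. Fcgr3, a low-affinity receptor for IgG, ran from 513 over 1712 to 4813 CPM. Lilrb4a, an inhibitory receptor, ran from 0 over 1020.5 to 3481 CPM, and its close copy Lilr4b can share reads with it, so its level is uncertain.

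The high ratios of these genes make their start regions of interest. C1qa, C1qb and C1qc lie side by side on chromosome 4 (136895917 to 136898803, 136880129 to 136886187 and 136889804 to 136893065, all on the minus strand, GRCm38). PU.1, the transcription factor encoded by Spi1, binds GGAA-type sites. The 7-letter site AGGAAGT was searched on both strands of RefSeq promoter windows, 250 bases before to 50 after the start of a gene (GRCm38.p6). It lay in 4 of the 6 genes of the top 10 that had a window (Lyz2, C1qb, C1qc and Ctss). The windows of 3 of them follow, written 5′ to 3′ on the strand of the gene, with the site in capitals as ACTTCCT, its reverse complement.

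Lyz2 (chr10:117282223-117282522, minus strand): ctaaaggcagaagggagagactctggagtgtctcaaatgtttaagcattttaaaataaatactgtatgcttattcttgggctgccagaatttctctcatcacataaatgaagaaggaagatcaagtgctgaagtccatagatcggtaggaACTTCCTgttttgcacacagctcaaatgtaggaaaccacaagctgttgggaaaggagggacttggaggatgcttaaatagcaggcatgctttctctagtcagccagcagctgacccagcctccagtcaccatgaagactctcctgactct
C1qb (chr4:136886151-136886450, minus strand): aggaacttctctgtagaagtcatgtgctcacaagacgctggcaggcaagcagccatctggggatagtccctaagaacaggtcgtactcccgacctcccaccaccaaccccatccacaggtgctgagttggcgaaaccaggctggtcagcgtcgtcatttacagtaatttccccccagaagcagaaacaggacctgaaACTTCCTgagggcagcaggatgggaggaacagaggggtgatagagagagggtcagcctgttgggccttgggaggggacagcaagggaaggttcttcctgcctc
C1qc (chr4:136892865-136893164, minus strand): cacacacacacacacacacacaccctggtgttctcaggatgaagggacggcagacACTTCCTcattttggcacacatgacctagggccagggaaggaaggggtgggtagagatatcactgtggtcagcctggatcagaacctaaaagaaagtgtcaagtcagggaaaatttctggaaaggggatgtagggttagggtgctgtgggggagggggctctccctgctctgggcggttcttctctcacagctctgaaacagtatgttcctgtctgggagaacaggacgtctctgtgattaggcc

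The site lay 93 bases before the start in Lyz2 and 46 in C1qb, and farther upstream in C1qc. A wider set, called macrophage-restricted here, had 20 CPM or more in macrophages, reads in 25% or more of them and under 1 CPM in both endothelial gates. These genes, which did not include Apoe and Ctss, made up 5.55% of the 4270 genes at that level. Of these, 97 had 0 reads in both endothelial gates. Among those with a window 59 (33.3%) held AGGAAGT, against 2886 of 27025 genes in the whole RefSeq table (10.7%). The longer GAGGAAGT, which contains it, lay in 24 of them (13.6%) and in 3.69% of all genes. The RefSeq table is not limited to genes expressed in these cells, and the share among expressed genes was not computed. Near copies such as Bcl2a1a and Bcl2a1b counted as separate genes. Both lengths were chosen after other searches of these windows, and a match of letters is not evidence of binding.

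Myeloid transcription factors were mostly higher in macrophages than in endothelium, which also carried some of them. Their sum had a median of 2650 CPM per macrophage, against 624 and 490 CPM in GFP- and GFP+ endothelial cells. Of 15 measured, 11 were at least 2-fold higher and 1 lower than in GFP- endothelial cells, with a median ratio of 4.44, and 12 were higher and 1 lower than in GFP+ cells, with 3.44. Spi1 ran from 0 over 473 to 1328 CPM, with reads in 96.3% of macrophages, and was at least 13182-fold above GFP- endothelial cells, which had 0 reads. Irf5, which drives inflammatory cytokines, was at 350.1 CPM against 0.40 and 0.98 in the endothelial gates, and Cebpb at 162.6 CPM against 6.51 and 6.09. Bhlhe41 and Runx1 varied most within the list, with reads in 66.7% and 56.8% of macrophages.

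Genes for opsonin sensing and digestion were carried by most cells, except for part of the complement list. After thinning, 18 of 19 lysosomal genes and 5 of 6 Fc receptor genes had reads in over 75% of macrophages. Only 6 of 12 complement genes did, and 2 had reads in under 25%. Cfb and Itgax, which varied most among complement genes of at least 20 CPM, had reads in 63% and 50.6% of macrophages before thinning. Complement had 10 of 11 measured genes higher than in GFP- endothelial cells and 0 lower, with a median of 8.55, or 11.98 with genes at 0 endothelial reads set to their bound. C5ar1, the receptor for the anaphylatoxin C5a, was at 471 CPM against 0.013 and 0.085. C1qb ran only from 2200 over 6929 to 12091 CPM. The SD of its log2(CPM + 1) over cells was 0.40, and all 18 genes of like mean level (within 2-fold) had a larger one. Fc receptors had 5 of 6 higher against either gate (medians 8.79 and 8.20), and the exception was Fcgrt, the neonatal Fc receptor that endothelium also uses, at 219.6 CPM against 155.6 and 218.4. Fcer1g, the signalling chain shared by Fc receptors, ran from 1694 over 3282 to 7609 CPM, with an SD of 0.43, below that of all 38 genes of like mean level. These chains were thus among the steadiest genes of the population.

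Of 19 lysosomal genes 16 were higher against either endothelial gate and 0 lower, with medians of 2.78 and 3.07, so the list was shared with endothelium at a lower level. Ctsz and Ctsd, both cathepsins, were at 1454 and 1822 CPM against 98.9 and 286.8 in GFP- endothelial cells. Lgmn, an asparaginyl protease, was at 3507 CPM against 486 and 508. Lipa, the acid lipase that frees cholesterol from engulfed lipid, was at 154.03 CPM against 144.1 and 126.97, within 2-fold, with reads in 62.96% of macrophages. Lysosomal genes summed to 11484 CPM in the lowest cell, 31717 in the median cell and 57160 in the highest.

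Lipid and iron genes followed. Of 13 genes of lipid handling 9 were higher and 2 lower than in GFP- endothelial cells (median 4.10), and 9 higher and 3 lower than in GFP+ ones (4.63). Lgals3, a galactose-binding lectin of phagocytes, was at 927 CPM against 13.8 and 8.12, and Cd63, a membrane protein of late endosomes, at 829 against 121.05 and 157.8. Fabp5, a fatty acid carrier, was at 114.2 CPM with reads in 46.9% of macrophages, while its relative Fabp4 had 0 macrophage reads and was at 3.76 and 128.05 CPM in the endothelial gates. Of 7 measured iron and haem genes 6 were higher than in GFP- cells (2.26). The ferritin genes Fth1 and Ftl1, which store iron, were at 9766 and 9807 CPM against 1639 and 2047, and Slc11a1, a metal exporter of the phagosome, at 353.8 CPM had 0 endothelial reads. Hmox1, haem oxygenase, had reads in 59.3% of macrophages.

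Of the receptors for debris and apoptotic cells, 7 of 8 measured were higher and 1 lower against either gate (medians 4.31 and 4.45). Msr1, a scavenger receptor for modified lipoproteins, was at 415 CPM, Mrc1, the mannose receptor, at 381.7 and Axl, a receptor for phosphatidylserine-bound Gas6, at 290.4 CPM. Stab1, which also clears debris in endothelium, was at 794 CPM against 253.5 and 361.45. The resident-type genes Marco and Lyve1 had 0 macrophage reads, and Folr2, Timd4 and Vsig4 were at 0.16, 0.59 and 0.012 CPM. Of 14 pattern recognition genes 10 were higher and 1 lower against either gate (5.14 and 4.92). Clec4n and Clec7a, lectins that sense fungal sugars, were at 434 and 161.1 CPM against at most 0.013 CPM in either endothelial gate. Tlr2, a receptor for bacterial lipoproteins, was at 286.3 CPM against 9.14 and 7.19.

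Secreted signals were broad for chemokines and narrow for growth factors. All 15 measured chemokines were higher than in GFP- endothelial cells and 14 of 15 than in GFP+ ones (medians 7.80 and 7.70), and their sum ran from 971 over 5391 to 21936 CPM per cell. Ccl4 and Ccl3, which attract monocytes and T cells, were at 1013 and 703 CPM, and Ccl2 and Ccl7, ligands of Ccr2, at 959.8 and 771 CPM. All 6 measured chemokine receptors were higher against either gate, among them Ccr1 at 484 and Cx3cr1, the fractalkine receptor, at 536 CPM. Growth factors had 4 higher and 4 lower of 11 against GFP- cells and 1 higher and 4 lower against GFP+ cells, with medians of 0.70 and 0.17. Pdgfb was at 37.2 CPM against 100.9 and 116.2, Pdgfa at 23.6 against 9.96 and 19.2, and Vegfa, the main angiogenic growth factor, at 2.99 CPM against 0.76 and 1.99.

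Markers of activation states were mixed. Inflammatory genes had 7 of 9 measured higher and 2 lower than in GFP- endothelial cells (4.71) and alternative activation genes 6 of 7 higher and 0 lower (3.98). Il1b and Tnf, cytokines of inflammation, were at 269.4 and 151.8 CPM with reads in 34.6% and 41.98% of macrophages. Il4ra, the receptor chain for IL-4 and IL-13, was at 216.4 CPM, and Mgl2, a lectin, at 96.2 CPM came from 16.05% of cells. Nos2, the inducible nitric oxide synthase, was at 2.51 CPM against 31.8 and 29.98 CPM in the endothelial gates, and Il6, Retnla and Ido1 had 0 macrophage reads. Immune regulators had 9 of 11 higher and 0 lower against either gate (3.72 and 4.60), with Sirpa, the receptor for the CD47 signal of living cells, at 576 CPM against 42.9 and 20.2.

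**Figure D2:**
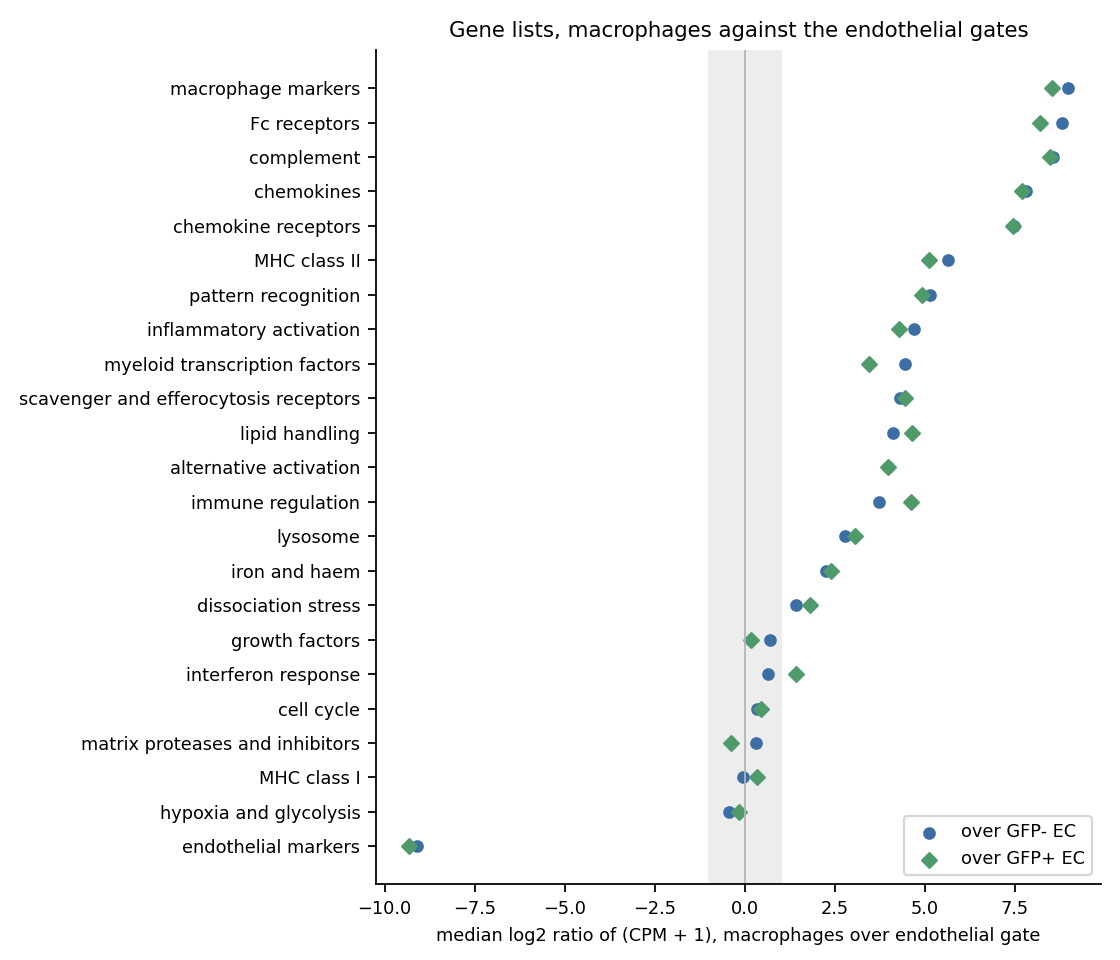
Median log2 ratio of (CPM + 1) of each gene list, macrophages over GFP- and over GFP+ endothelial cells, for lists with at least 5 measured genes in both comparisons. Macrophage markers, complement, Fc receptors and chemokines lie near 8 or above, MHC class I, hypoxia and cell cycle genes near 0, and endothelial markers at -9.11 and -9.33.

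Many listed genes had 0 endothelial reads, and a ratio then depends on the pseudocount. With such genes at their bound, the medians against GFP- and GFP+ cells were 11.18 and 10.59 for macrophage markers, 11.98 and 11.13 for complement and 9.72 and 9.06 for Fc receptors. They were 9.57 and 7.79 for chemokines, 8.87 and 7.48 for inflammatory genes, 6.34 and 7.86 for alternative activation and 7.05 and 5.99 for pattern recognition. They were 6.498 and 4.77 for immune regulators, 4.82 and 5.72 for debris receptors and 5.92 and 5.68 for MHC class II.

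Other lists had median log2 ratios between -0.44 and 0.35, with members on both sides in 2 of them. MHC class I genes had 1 of 9 higher than in GFP- cells and 2 of 9 than in GFP+ cells, with 0 lower and medians of -0.05 and 0.35, and B2m, its light chain, was at 5104 CPM against 3376 and 2929. Hypoxia and glycolysis genes had 3 of 13 higher and 5 lower than in GFP- cells and 1 higher and 5 lower than in GFP+ cells (-0.44 and -0.16). Eno1 and Aldoa, glycolytic enzymes, were at 1167 and 956 CPM against 1153 and 1092 in GFP- cells. Hif1a, the oxygen-sensing factor, was at 130 CPM against 505 and 657. Matrix proteases and their inhibitors had 3 higher and 3 lower of 7 against GFP- cells (0.32), with the collagenase Mmp13 at 65.8 CPM from 3 cells and Mmp14 at 227.7 CPM against 496 and 441.

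Within the population, levels were far from even. Of 17170 genes with a read, 0.909% had a read in all 81 macrophages. A gene was called unevenly carried when its mean over cells was at least 20 CPM and 25% to 75% of the thinned cells had a read, which held for 3075 of 6027 genes (51%), against 56.4% of 6478 in GFP- and 48.96% of 6444 in GFP+ endothelial cells. The macrophage share thus lay between those of the endothelial gates. The 10 uneven genes with the largest SD of log2(CPM + 1) were Spp1, Hspa1a, Fn1, Ccl7, F13a1, Arg1, Sgk1, Vcam1, Cxcl2 and Ccrl2.

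**Figure D3:**
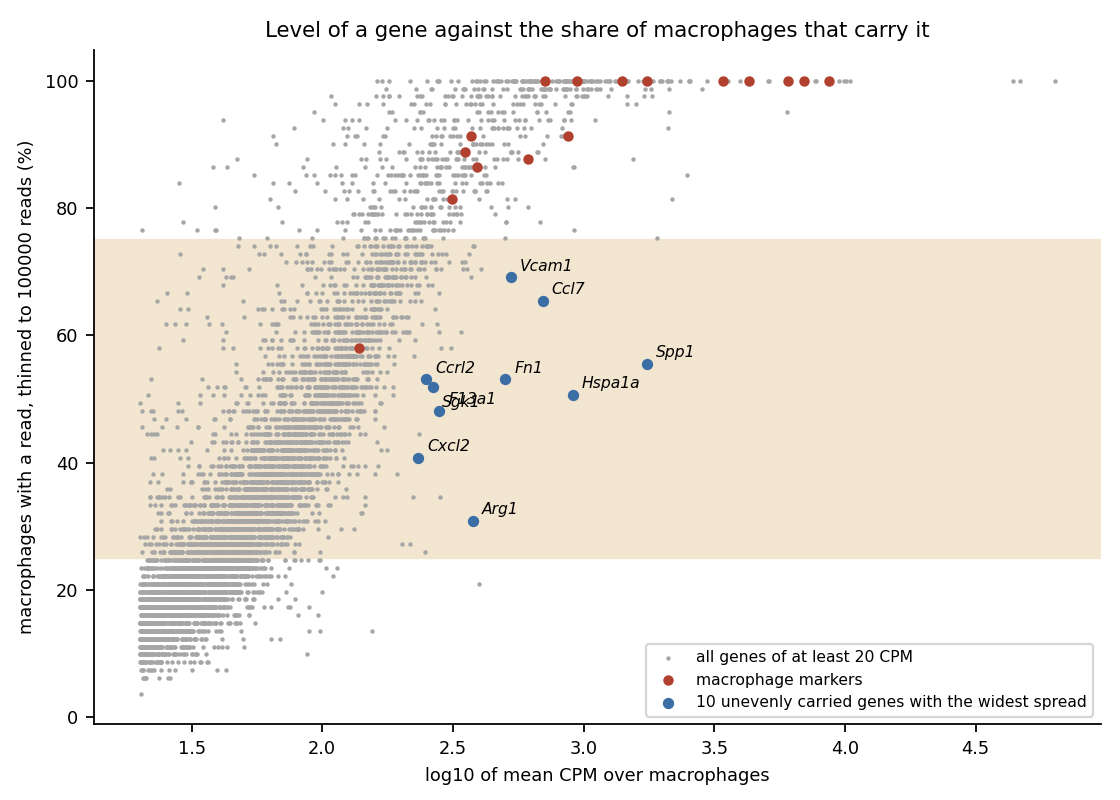
Share of macrophages with a read of a gene after thinning to 100000 reads (%) against log10 of its mean CPM, 1 point per gene of at least 20 CPM. Macrophage markers lie along the upper edge, and Spp1 and Hspa1a, at 55.6% and 50.6% of cells, lie far below genes of like level.

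Spp1, which encodes the matrix protein osteopontin, was the extreme case (chromosome 5, 104435118 to 104441050, plus strand). It ran from 0 over 72.7 to 16836 CPM, with a summed level of 1927 CPM. Reads were in 56.8% of macrophages (45.3% to 67.8%), and 8 cells held 52.3% of the summed per-cell level. Its SD of 5.46 compares with a median of 1.00 among 96 genes of like mean level, of which 0 had a larger one. Arg1, the arginase that depletes arginine (chromosome 10, 24915221 to 24927484, minus strand), ran from 0 over 0 to 5763 CPM, with reads in 32.1% of cells and 73.5% of its level in 8 of them. F13a1 (chromosome 13, 36867178 to 37050244, minus strand) ran from 0 over 4.38 to 1820 CPM, and Fn1 from 0 over 38.5 to 4900 CPM.

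These genes tended to occur in the same cells. Of the 39 macrophages with F13a1 at 10 CPM or more, 33 also held Spp1 at that level, whereas 11 of the 42 cells outside did. Median Spp1 was 2309 CPM in the F13a1 cells and 0 in the others, and Spearman's rho between them was 0.72 over the 81 cells of this plate, with the same value after thinning. Arg1 at 10 CPM was found in 25 cells, of which 21 held F13a1 (rho 0.55) and 20 held Spp1 (0.43). Fn1 joined F13a1 in 30 cells (0.53). The pairs were picked after their values were seen, and for scale the median rho over pairs of all 6027 genes was 0.02, with 5% to 95% of pairs from -0.17 to 0.21.

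The F13a1 cells had a median of 3478 genes and 898707 reads, against 3193.5 genes and 822970 reads in the other cells. The part that depth plays in the features of the F13a1 cells was not tested. Complement was lower in these cells, with a median C1qa level of 3443 CPM against 4710 and a rho of -0.41, or -0.35 after thinning. Their summed MHC class II level was 4713 CPM in the median against 11800 in the other cells, with ranges that overlapped (1.33 to 56608 and 264.2 to 64480). Arg1 and Itgax, the CD11c integrin of the complement receptor 4, seldom met, in a pair picked after its values were seen. Each was at 10 CPM in 25 and 39 cells, and 3 cells held both (rho -0.43, or -0.40 after thinning). No pair among the 13366 pairs of listed genes reached -0.5, and 7 reached -0.4. Arg1 with Itgax was the lowest of all these pairs, and C1qa with F13a1 was also among the 7. Whether so low a value exceeds that expected of the lowest of so many pairs was not tested.

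MHC class II genes differed widely between the macrophages. H2-Aa, an alpha chain of the class II molecule, ran from 0 over 986 to 11575 CPM, H2-Eb1, a beta chain, from 0 over 765 to 12259 CPM, and Cd74, the invariant chain that guards its groove, from 0 over 3583 to 24502 CPM. The summed list ran from 1.33 over 7754 to 64480 CPM per cell. It was under 1000 CPM in 14 cells and at least 30000 CPM in 10, with a lower quartile of 1386 and an upper one of 18892 CPM, so the cells formed a range and no cut was drawn. All 8 genes were at least 2-fold higher than in either endothelial gate (medians 5.64 and 5.11), where the highest cells held 1680 and 9852 CPM. Cd74 had an SD of 3.48, above all 20 genes of like mean level, whose median was 0.64.

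The chains varied as a unit. H2-Aa and Cd74 had a rho of 0.93, H2-Aa and H2-Eb1 0.94 and H2-Aa and H2-Ab1 0.91. The 6 pairs among these genes and Cd74, from 0.90 to 0.94, were the closest of all listed pairs. Ciita, the transactivator of class II genes, was at 8.36 CPM and reached 10 CPM in only 8 cells, all of which held H2-Aa, at a median of 3861 CPM against 920.4 in the others. H2-DMa and H2-DMb1, which load peptides, were at 435 and 361.8 CPM, and H2-DMb1 and its near copy H2-DMb2 can share reads. The class II sum had a rho of 0.46 with the MHC class I sum, of -0.07 with the genes detected and of -0.23 with the monocyte sum. H2-Aa had a rho of -0.03 with Mrc1, -0.17 with Spp1 and -0.12 with Arg1.

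Class II promoters share an element, the Y box, that is bound by the CCAAT-binding factor NF-Y. It was searched here as TGATTGG, which holds CCAAT in reverse complement, on both strands. Of the 8 listed class II genes, only 5 had a window in the RefSeq table. It lay in 4 of these 5 (H2-Aa, H2-Eb1, H2-DMb1 and H2-DMb2, not H2-DMa). The share was 9.00% of all 27025 genes of that table and 3.39% of the macrophage-restricted genes with a window. H2-DMb1 and its near copy H2-DMb2 counted as separate genes. H2-DMb1 varied less closely with H2-Aa and H2-Eb1 (rho 0.51 and 0.55) than H2-Aa and H2-Eb1 did with each other (0.94). The windows of these 3 genes follow, 5′ to 3′ on the strand of the gene in GRCm38.p6, with TGATTGG in capitals.

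H2-Aa (chr17:34287774-34288073, minus strand): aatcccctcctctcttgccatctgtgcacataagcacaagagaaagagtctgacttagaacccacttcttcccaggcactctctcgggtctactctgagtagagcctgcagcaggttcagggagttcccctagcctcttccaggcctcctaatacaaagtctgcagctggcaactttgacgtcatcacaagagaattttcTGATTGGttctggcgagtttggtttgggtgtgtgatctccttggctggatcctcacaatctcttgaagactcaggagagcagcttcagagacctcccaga
H2-Eb1 (chr17:34305617-34305916, plus strand): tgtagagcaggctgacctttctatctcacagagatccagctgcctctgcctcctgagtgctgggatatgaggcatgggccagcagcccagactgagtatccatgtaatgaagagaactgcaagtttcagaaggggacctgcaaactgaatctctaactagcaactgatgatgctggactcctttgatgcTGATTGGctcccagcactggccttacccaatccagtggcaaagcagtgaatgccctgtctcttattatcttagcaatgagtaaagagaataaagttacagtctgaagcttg
H2-DMb1 (chr17:34152941-34153240, plus strand): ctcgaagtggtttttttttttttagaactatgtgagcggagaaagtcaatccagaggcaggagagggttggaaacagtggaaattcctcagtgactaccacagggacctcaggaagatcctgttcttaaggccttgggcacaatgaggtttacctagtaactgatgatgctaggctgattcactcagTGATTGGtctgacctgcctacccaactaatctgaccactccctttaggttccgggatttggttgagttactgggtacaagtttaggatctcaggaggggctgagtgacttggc

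The element lay 43, 54 and 56 bases before the start in H2-Aa, H2-Eb1 and H2-DMb1. Its letters are a description of these windows and say nothing of which factor was bound in these cells.

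**Figure D4:**
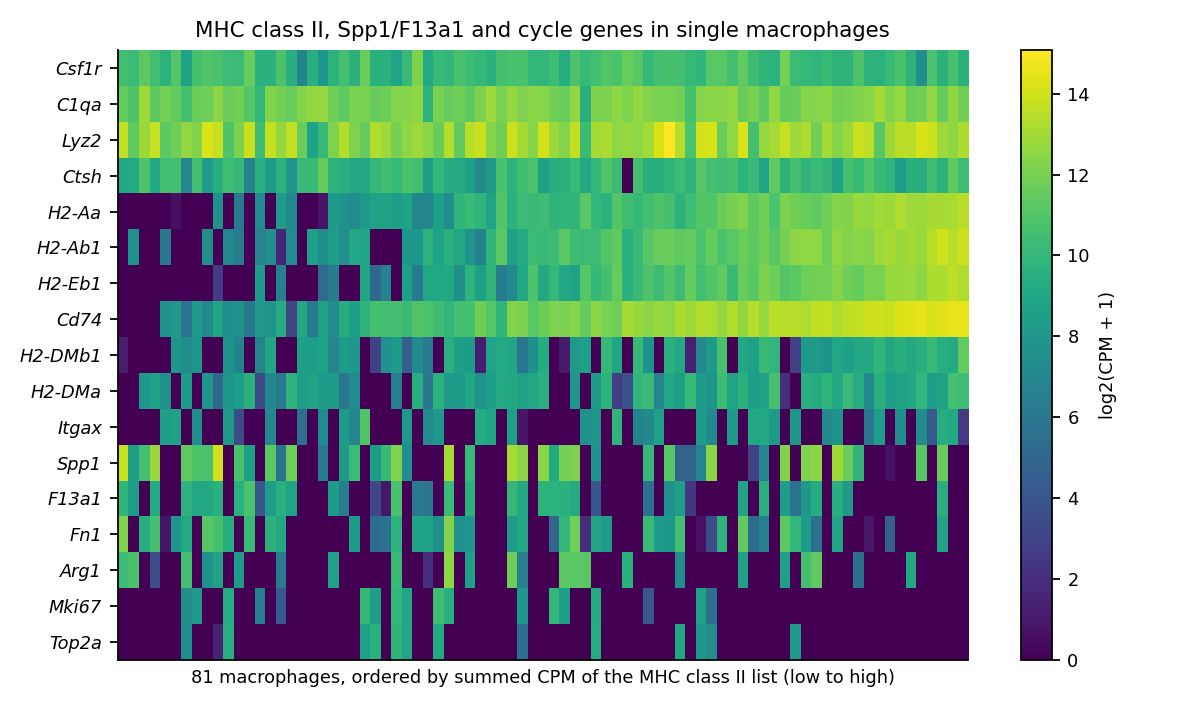
Level, as log2(CPM + 1), of MHC class II, Spp1/F13a1 and cell cycle genes in the 81 macrophages, 1 column per cell in the order of summed MHC class II. Class II genes change together along the order, whereas Spp1, F13a1 and Arg1 share cells at several class II levels.

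Some neighbouring chemokine genes varied together, in pairs picked after their values were seen. Over all pairs of listed chemokines of at least 20 CPM the median rho was 0.02, the same as over pairs of all genes at that level. Ccl2 and Ccl7, next to each other on chromosome 11 (82035571 to 82037453 and 82045712 to 82047525, both on the plus strand), were both at 10 CPM in 50 cells, with a rho of 0.67. Ccl7 ran from 0 over 140 to 5849 CPM. Ccl3 and Ccl4, also neighbours on that chromosome (83647844 to 83649355 on the minus strand and 83662584 to 83664683 on the plus strand), were both present in 53 cells, with a rho of 0.57. Il1b and Cxcl2, a neutrophil attractant, were at 10 CPM in 27 and 33 cells and met in 16 (0.37). Pairs of phagocytic genes had a median rho over pairs of 0.03 for complement, 0.05 for Fc receptors and 0.15 for the lysosome. Single pairs were higher, and these were picked after their values were seen: 0.61 for Ctsb and Ctsd, 0.60 for C1qa and Ctss and 0.55 for Fth1 and Ftl1. The summed complement and lysosomal lists had a rho of 0.56.

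A cycling fraction was visible. In 16 of 81 macrophages (19.8%, 11.7% to 30.1%) at least 5 of 14 cell cycle genes were at 10 CPM or more, against 14 of 84 GFP- (16.7%) and 27 GFP+ endothelial cells (15.98%), and after thinning the shares were 19.8%, 18.3% and 16.2%. At 7 genes or more the counts were 14, 6 and 19, and 1 macrophage lay just below the limit with 4 genes and 2 on it with 5. Mki67, a marker of cycling nuclei, and Top2a, a topoisomerase of S and G2 phases, met in 11 of the 18 and 13 macrophages that held each. Pcna, a clamp of DNA replication, was at 245.5 CPM with reads in 61.7% of cells.

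The cycling macrophages had deeper libraries than the others and lower medians of summed markers and class II genes. They had a median of 4205.5 genes with a read against 3168 and of 1284050 reads against 815117. Their macrophage markers summed to a median of 31883 CPM against 38862, and their class II genes to 3523 CPM against 9046, reaching at most 17097. The marker sums of cycling cells, from 23105 to 48461 CPM, lay within the range of the others, from 13339 to 67905. Medians of single markers were close, at 4276 against 4233 CPM for C1qa, 1140 against 1236 for Csf1r and 6888 against 7410 for Lyz2. No cycling cell was among the 4 wells with T cell reads. The part that depth plays in these differences was not tested.

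A smaller group carried an interferon response. In 8 of 81 macrophages (9.88%, 4.36% to 18.5%) at least 5 of 12 interferon-stimulated genes were at 10 CPM, and 4 of these held 11 or 12 of them. The same count was 10 of 84 in GFP- (11.9%) and 6 in GFP+ endothelial cells (3.55%). A high end was seen there too, with 1 GFP- cell at 11 genes, 2 at 10 and 1 cell of each endothelial gate at 9. Summed interferon genes had a median of 4022 CPM in the 8 cells and 301.7 in the others. The same genes chose the cells, so a higher sum was fixed by that choice. Ifit3, an RNA-binding antiviral protein, at 107.5 CPM was held almost wholly by its 8 highest cells. The 8 cells had a median of 3575.5 genes against 3289. Their MHC class II sum was 6867 CPM in the median against 7754.

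**Figure D5:**
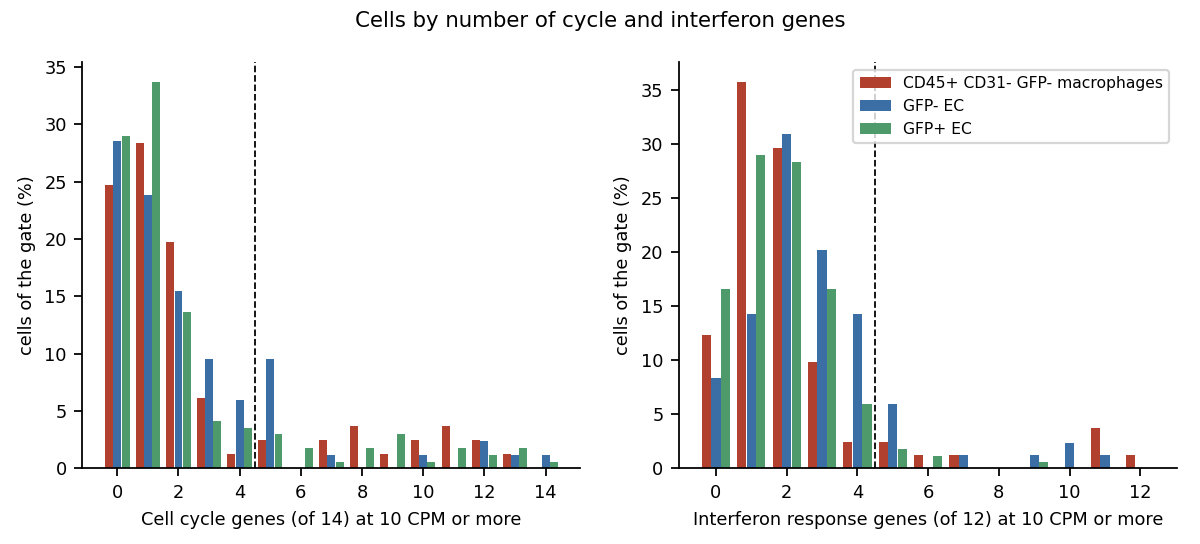
Share of the cells of each gate (%) by the number of cell cycle genes (of 14) and interferon genes (of 12) at 10 CPM or more, with the limit of 5 genes dashed. Most cells of every gate lie at 0 to 2 cycle genes. At 11 or 12 interferon genes lie 4 macrophages, and some endothelial cells also lie high, at 9 to 11.

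Genes that respond to cell isolation were high, and their sum was lower in cells with more genes detected. Of 12 dissociation stress genes 8 were higher and 0 lower than in GFP- endothelial cells (1.41), and 7 higher and 0 lower than in GFP+ ones (1.80). Fos, an immediate-early factor, ran from 0 over 1893 to 7329 CPM, and Zfp36, which destabilises inflammatory mRNAs, from 0 over 827 to 3617 CPM. Hspa1a, an inducible heat shock chaperone, ran from 0 over 237.4 to 6625 CPM with reads in 51.9% of cells, and its near copy Hspa1b can share its reads. The sum of the list ran from 240.6 over 6178 to 15955 CPM and had a rho of -0.45 with the number of genes detected, so cells with fewer genes held more of it. It had a rho of 0.30 with the summed chemokines, of 0.21 with the inflammatory genes and of 0.40 with the myeloid transcription factors over the 81 cells, and its part in their levels was not tested.

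Clustering without the listed genes gave 4 clusters of 24, 22, 19 and 16 cells, all with reads of all 16 macrophage markers in at least 30% of their cells. The first component held 4.92% of the variance and had a rho of 0.91 with the number of genes detected. The first cluster had the most genes (median 4230.5) and held 14 of the 16 cycling cells, and the second the fewest (2587) and the highest stress sum, 10431 CPM. Median class II sums were 5378, 7043, 7760 and 11491 CPM. The other 2 clusters had median gene numbers of 3328 and 3099.5 and held 1 and 0 cycling cells. No cluster was given a name.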

How the data were processed

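Per the labels' protocols, single cells were sorted into plates, amplified with a modified SMART-seq2 protocol and made into Nextera XT libraries. The authors deposited raw read counts per gene, without molecular identifiers. Reads were processed against the build mm10 with STAR 2.4.1b, Subread 1.4.6-p2 and FastQC 0.11.4, per the submitters' processing notes, which give no settings here. The table had 51826 rows, and 92 duplicate symbols were summed, which left 51734. Levels are CPM of summed or single-cell counts, ratios use a pseudocount of 1 CPM, and a fold against 0 reads uses a floor of 3 reads over the gate and is a lower bound. Shares carry exact Clopper-Pearson 95% intervals. Cells were thinned to 100000 reads to compare shares, which left out 0 macrophages and 2 cells of each endothelial gate. Gene positions and lengths are from GENCODE vM21 (GRCm38).

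The 35 lists hold 338 genes. The cells, lists, tests and named genes were chosen with earlier results of these data known. Named were the gate and marker genes, up to 4 members of a list with the highest CPM per kb and 2 with the largest SD among those of at least 20 CPM, the 10 highest ratios, the 10 most variable uneven genes and list members at 0 reads. Results for some single genes of the lists are not reported here. Other genes named with a value were chosen after their values were seen. Clustering used 2000 variable genes and Leiden at a resolution of 1. Alternatives were other pseudocounts, filters on genes and cells, scalings (TMM, edgeR 4.0.16 in R 4.3.3), thinning depths, single GFP+ plates and wells left out. Counting steps were tested on simulated data. Python 3.11.15, pandas 2.3.3, scipy 1.17.1 and leidenalg 0.10.2 were used.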

Additional observations from a re-analysis of the deposited data

How the results depend on the processing

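With a filter of 10 CPM and reads in 25% of cells, fewer genes were tested, and 1090 were at least 2-fold higher and 1701 lower in macrophages than in GFP- endothelial cells, and 1102 higher and 1262 lower than in GFP+ ones. The other scalings, pseudocounts, cell filters, plates and left-out wells kept these counts within 1.5 times. Restricted to genes of at least 100 CPM, 800 of 1483 genes (53.9%) were unevenly carried. The number of clusters was 2 at a resolution of 0.5 and 14 at a resolution of 2, so it rests on that setting. On thinning, 7 shares of cells moved beyond their interval, among them Pecam1, to 6.17%, and Ldha, to 92.6%. The alternatives without wells with T cell reads and without 1 of the correlated GFP- wells were chosen after seeing the data. No paired analysis was possible because the wells carry no replicate number and no result comes from a test. At a median of 867486 reads per macrophage, a gene near 10 CPM rests on few reads in a cell, and its absence from a cell was not detectable as such.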

Other observations

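The B cell transcripts Ighm and Cd79b were found without several other genes of that lineage. Ighm had reads in 48.1% of the macrophages, or 41.98% after thinning, and Cd79b in 24.7%, or 19.8% after thinning. Both had 0 reads in either endothelial gate. Cd79a, Pax5, Jchain and Mzb1 had 0 macrophage reads, Ms4a1 was at 0.012 CPM and Igkc, the light chain constant region, at 0.075 CPM. Ighm and Cd79b reached 10 CPM in 34 and 15 cells and met in 5, with a rho of -0.09 over the 81 cells. Hk2, the inducible hexokinase, was at 53.7 CPM with reads in 60.5% of macrophages and was nearly absent from the endothelial gates, at 0 and 0.013 CPM, while the glucose transporter Slc2a1 was at 90.3 CPM against 1008 and 492. Cxcl9, a T cell attractant, reached 12966 CPM in its highest macrophage and was at 0 in the median cell.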
